A study of Rattus norvegicus with 4 samples.

Results

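The genes described here are 10 antioxidant defence genes, namely Hmox1, Nqo1, Gclc, Gclm, Sod1, Sod2, Cat, Gpx1, Prdx1 and Txnrd1, chosen by gene symbol, without regard to letter case, from the expression values of the neonatal rat hippocampus. Each symbol matched 1 row, so the genes make up 10 of the 17445 rows listed in any library and 10 of the 16375 rows listed in all 4. RNA was sequenced from 4 libraries of Wistar rat pups taken on postnatal day 1, of which 2 came from males (control and BPA) and 2 from females (control and BPA). The pups had been exposed in the womb to bisphenol A (BPA), a plastics monomer that disrupts endocrine signalling, or to its vehicle. Their mothers, aged 10 weeks by the labels, were dosed by gavage every day of pregnancy starting at gestation day 1, and the BPA dose was 5000 µg/kg BW. Each library was made from 3 pooled hippocampi, of pups that the study describes as coming from independent litters, so every combination of sex and treatment is a single sample. The question addressed is whether prenatal exposure to BPA was accompanied by different transcript levels of the antioxidant defence genes in male or female offspring.

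Cells handle reactive oxygen species in steps: superoxide dismutases convert superoxide to hydrogen peroxide, and catalase, glutathione peroxidases and peroxiredoxins break the peroxide down. Glutathione, made by glutamate-cysteine ligase, and thioredoxin, kept reduced by thioredoxin reductase, supply the reducing power. Many of the genes are targets of the transcription factor NRF2 (gene Nfe2l2), which the protein KEAP1 keeps low until oxidants or electrophiles modify KEAP1, and which binds antioxidant response elements in DNA. The brain uses much oxygen and is rich in oxidizable lipids, and its astrocytes supply neurons with precursors of glutathione.

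To show the letters that NRF2-type elements share, promoter windows of 250 bases before to 50 bases after each transcription start were taken from the RefSeq annotation of the rat assembly GRCr8, which differs from the rn6 build used for the expression values. Windows were found for 9 of the 10 genes (10 windows, since Txnrd1 has a pair of starts). Hmox1 had no entry. The antioxidant response element core TGACNNNGC, searched on both strands, was found in the windows of 4 of the genes, and in 12.1% of all 33469 windows. In all 4 the match lies on the strand opposite to transcription, so it reads GCNNNGTCA in the stretches given here 5′ to 3′ on the gene's own strand, with the match in capitals. The stretches are from chr1:50050169-50050229 on the minus strand for Sod2, chr2:213031937-213031997 on the plus strand for Gclm, chr5:135383745-135383805 on the plus strand for Prdx1 and chr7:22755948-22756008 on the minus strand for Txnrd1.
Sod2: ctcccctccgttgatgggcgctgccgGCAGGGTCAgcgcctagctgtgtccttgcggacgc
Gclm: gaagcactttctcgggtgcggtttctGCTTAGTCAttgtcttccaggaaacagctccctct
Prdx1: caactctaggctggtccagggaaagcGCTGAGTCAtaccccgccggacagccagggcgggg
Txnrd1: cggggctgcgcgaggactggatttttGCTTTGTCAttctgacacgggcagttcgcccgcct

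The matches begin 35 bases before the start in Sod2, 172 in Gclm, 135 in Prdx1 and 78 in Txnrd1. The letters TATAAA, the common form of the TATA box, were searched on the gene's own strand from 50 to 15 bases before the start. They were found in 2.04% of all windows and in those of Prdx1 and Sod1, the 2 genes with the highest levels here. They lie 32 bases before the start in Prdx1 (chr5:135383848-135383905, plus strand) and 28 bases before it in Sod1 (chr11:42942769-42942822, plus strand), and do not overlap the other motif. Both stretches are shown because they belong to the most abundant of the 10 transcripts. A match is a description of the letters and not a measured binding site.
Prdx1: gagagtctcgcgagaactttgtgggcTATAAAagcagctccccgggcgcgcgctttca
Sod1: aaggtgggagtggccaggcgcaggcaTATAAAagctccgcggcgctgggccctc

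All 10 genes were detected in every library, and their levels spanned a range of 29.3-fold between the lowest and highest mean. Levels are in FPKM, fragments scaled to the length of the transcript and to the depth of the library, a scale on which genes can be compared. From the highest to the lowest mean over the 4 libraries, the order was Sod1 (139.1 FPKM), Prdx1 (113.3), Gpx1 (45.48), Cat (37.17), Txnrd1 (35.52), Sod2 (20.72), Gclc (13.96), Gclm (8.947), Nqo1 (5.98) and Hmox1 (4.755). Of the 9 neighbouring pairs in the order, 1 had overlapping ranges over the libraries, namely Nqo1 and Hmox1. The gaps between Gpx1 and Cat and between Cat and Txnrd1 were small, with a lowest Gpx1 value of 37.54 FPKM beside a highest Cat value of 37.23 FPKM, and a lowest Cat value of 37.09 FPKM beside a highest Txnrd1 value of 36.6 FPKM. Among the 16375 rows listed in all 4 libraries, Sod1 stood at the 97.3rd percentile of mean level and Prdx1 at the 96.4th. Nqo1 stood at the 45.9th and Hmox1 at the 41.4th. The 16375 also hold rows under the filter of a mean of at least 1 FPKM, which 13542 rows passed.

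**Figure D1:**
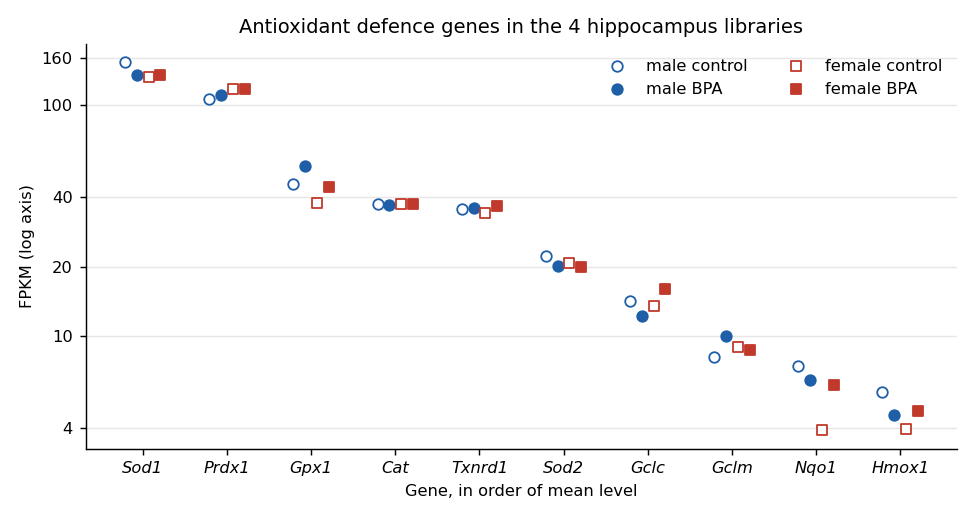
Level of each antioxidant defence gene in FPKM (vertical log axis), in order of mean level from left to right; each point is 1 library of 3 pooled hippocampi, so there is no error bar. The 4 points of Cat lie between 37.09 and 37.23 FPKM, while the female control library is the lowest for Nqo1 at 3.9 FPKM.

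Depth was even, with 8654000 to 8926000 fragments per library as recovered from the smallest steps between low values, and the 10 transcripts stood for between 48 fragments (Nqo1 in female control) and 1091 fragments (Txnrd1 in female BPA). The defining markers of the labelled tissue were present: all 11 markers of hippocampal neurons were listed, summing to 642.6 to 672.4 FPKM, and those of thalamus or hypothalamus summed to 6.01 to 9.1 FPKM. Other cells differed more: the 10 meninges and vessel wall markers summed to 401.2 FPKM in female control and to 134.5 to 154.5 FPKM in the other libraries, and the 8 choroid plexus markers to 268.1 FPKM in control and 710.8 in BPA males but to 11 and 49.02 in control and BPA females. In these bulk libraries fewer cells of a type and less RNA per cell cannot be told apart. With 1 library against 1 the within-sex values have no replicate check; the intervals given with them cover counting error only. For both sexes together, 2 BPA libraries were compared with 2 control libraries with limma, whose P values measure only the spread between these libraries.

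None of the 10 genes passed the test of BPA against control in both sexes together (limma, P adjusted over 13542 rows), and none had an unadjusted P under 0.05. The background was the same, with 0% of all rows called after adjustment and 4.7% (637 rows) at an unadjusted P under 0.05. With sex as a covariate, 2 of all rows were called, neither of them an antioxidant defence gene. No single value can pass an exact permutation test here, since the smallest two-sided P with 2 libraries against 2 is 0.333. The median log2 difference of the 10 genes was 0.03 in both sexes together (from -0.10 to 0.24), beside -0.02 over all rows.

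Hmox1 (gene 24451) encodes heme oxygenase 1, the inducible enzyme that opens the heme ring to biliverdin, iron and carbon monoxide, and it is a classic NRF2 target that is kept repressed by BACH1. Its level was 5.73 FPKM in control and 4.57 in BPA males, and 3.97 in control and 4.75 in BPA females, from 53 to 78 fragments per library. Male control was the highest library and female control the lowest, and both BPA libraries lay between them. The BPA to control ratio was 0.798 in males, and female BPA was 19.6% higher than its control. Both 95% counting intervals contain 1. The log2 difference over both sexes was -0.03 ± 0.20 (SE, limma adjusted P = 0.991), and its sign turned under quantile normalization (0.02). Red blood cell markers, of which 9 of 12 symbols were listed, summed to 1458, 1250, 1187 and 1472 FPKM in the same order of libraries, and 10 markers of microglia and macrophages, which express Hmox1 strongly when they take up heme, to 47.69, 55.99, 61.41 and 50.93 FPKM. The macrophage marker Cd163 was at 0.14 to 0.72 FPKM, highest in female control, where Hmox1 was lowest. The part of these cells in the Hmox1 values was not tested.

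Nqo1 (gene 24314), the quinone reductase that is often used as a readout of NRF2, gave the largest within-sex difference of the 10. It was at 7.42 FPKM in control and 6.48 in BPA males, and 3.90 in control and 6.12 in BPA females, from 93, 81, 48 and 76 fragments. The female control library stood below the other three, so the female difference rests on that library. Female BPA was 56.9% higher than female control (ratio 1.57, 95% counting interval 1.08 to 2.30), whereas in males the ratio was 0.873. This was the only one of the 10 past a log2 difference of 0.5 (a ratio of 1.41 before the pseudocount) in either sex: 1 of 10 was higher in female BPA, beside 3.18% of all rows, and 0 of 10 lower, beside 6.79%; in males 0 of 10 were on either side, beside 3.34% of all rows on the higher and 3.86% on the lower side. Under quantile normalization 587 of the 1210 rows past 0.5 in females were on the higher side, beside 430 of 1349 without it. Over both sexes the log2 difference of Nqo1 was 0.18 ± 0.26 (SE, limma adjusted P = 0.98), and it was -0.21 without the female control library. That library also held the high meninges and vessel wall sum of 401.2 FPKM and the lowest choroid plexus sum, 11 FPKM. Within the choroid plexus sum Ttr was at 3.96 FPKM in female control beside 42.39 in female BPA. Folr1, Kl, Aqp1, Clic6 and Kcnj13 were instead higher in female control than in female BPA. The part of meningeal, vessel wall and choroid plexus cells in the low Nqo1 value was not tested.

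Gclc and Gclm encode the catalytic and the modifier subunit of glutamate-cysteine ligase, the enzyme that limits the rate of glutathione synthesis. Gclc (gene 25283) was at 14.12 FPKM in control and 12.22 in BPA males, and 13.46 in control and 16.04 in BPA females. Gclm (gene 29739) was at 8.12, 10.01, 8.99 and 8.67 FPKM in the same libraries. The subunits thus had opposite extremes, since male BPA was the lowest library for Gclc and the highest for Gclm. The Gclc to Gclm ratio of FPKM was 1.74 in control and 1.22 in BPA males, and 1.5 in control and 1.85 in BPA females. The BPA to control ratio of Gclc was 0.865 in males and 1.19 in females (female 95% counting interval 1.03 to 1.37). For Gclm the ratio was 1.23 in males and 0.964 in females, with both counting intervals containing 1, and quantile normalization turned the small female difference to 0.03 on the log2 scale. Over both sexes the log2 differences were 0.02 ± 0.15 for Gclc and 0.11 ± 0.14 for Gclm (SE, limma adjusted P = 0.992 and 0.975).

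The superoxide dismutases were the most and the sixth most abundant of the 10 genes. Sod1 (gene 24786), the cytosolic copper-zinc enzyme, was at 153.41 FPKM in control and 135.01 in BPA males, and 132.36 in control and 135.76 in BPA females. The male control library was high and the other three lay close together. The BPA to control ratio of Sod1 was 0.880 in males (95% counting interval 0.794 to 0.977), and in females BPA was 2.57% higher. The log2 difference over both sexes, -0.07 ± 0.11 (SE, limma adjusted P = 0.982), became 0.03 without the male control library. The red blood cell sums given for Hmox1 were also highest in male control and female BPA and lowest in female control, and the part of these cells in the Sod1 values was not tested. Sod2 (gene 24787), the mitochondrial manganese enzyme, was at 22.32, 20.02, 20.7 and 19.84 FPKM. Both BPA libraries were below both controls, with ratios of 0.897 in males and 0.958 in females, and both counting intervals contain 1. Sod2 was 1 of 10 genes with this order, beside 19.9% of all rows, and its log2 difference was -0.10 ± 0.11 (SE, limma adjusted P = 0.973). The 8 radial glia and astrocyte markers also summed to less in both BPA libraries, with 1338 FPKM in control and 1199 in BPA males, and 1325 in control and 1226 in BPA females, and 5 of the 8 were below both controls. Their part in the Sod2 values was not tested. The Sod1 to Sod2 ratio of FPKM stayed between 6.39 and 6.87 in the 4 libraries.

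The peroxide-removing enzymes held the steadiest gene, Cat. They also held Gpx1, whose BPA difference was the most alike in males and females among the genes with the same sign in both. Cat (gene 24248), which encodes the peroxisomal enzyme catalase, was at 37.23 FPKM in control and 37.09 in BPA males, and 37.16 in control and 37.21 in BPA females, a range of 0.377% of the mean. At 805 to 825 fragments per library, this spread is far narrower than the counting intervals of both BPA to control ratios, which contain 1. Red blood cells carry catalase, and their markers ranged from 1187 to 1472 FPKM over the same libraries.

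Gpx1 (gene 24404), the main cytosolic glutathione peroxidase and a selenoprotein, was at 45.67 FPKM in control and 54.4 in BPA males, and 37.54 in control and 44.31 in BPA females. Within each sex the BPA library was the higher, by 19.1% in males (ratio 1.19, 95% counting interval 1.03 to 1.38) and by 18% in females (ratio 1.18, 95% counting interval 1.004 to 1.386). The groups of BPA and control nevertheless overlap, because male control exceeded female BPA. The log2 difference over both sexes was 0.24 ± 0.15 (SE, limma adjusted P = 0.973). With sex as a covariate the SE was 0.08 and the unadjusted P 0.0141, a level that 1216 of all rows (8.98%) also reached, and the adjusted P was 0.466. Gpx1 was the only one of the 10 whose counting interval excluded 1 in both sexes. Of all rows, 28.3% had such an interval in males and 37.1% in females, and the share with it in both was not computed. Leaving out 1 library moved the log2 difference to 0.10 without male BPA, 0.10 without female control, 0.38 without male control and 0.39 without female BPA. The 8 choroid plexus markers, all listed in every library, summed to values in the same order of libraries as Gpx1, with 710.8 FPKM in male BPA, 268.1 in male control, 49.02 in female BPA and 11 in female control. Most of that sum was Ttr, which ranged from 3.96 to 689.51 FPKM and alone of the 8 had the order of Gpx1. Folr1, Kl, Aqp1, Clic6 and Kcnj13 were lower in female BPA than in female control. Kcne2 and Otx2 were higher in female BPA than in male control. The red blood cell and the microglia and macrophage sums given for Hmox1 had other orders. The part of these cells in the Gpx1 values was not tested.

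Prdx1 (gene 117254), a peroxiredoxin that reduces peroxides with electrons from thioredoxin, was at 106.93 FPKM in control and 110.89 in BPA males, and 117.34 in control and 117.92 in BPA females. Both female libraries were above both male libraries, and the treatments differed by 3.7% in males and 0.494% in females. A new gene model of the authors' assembly whose best protein match is also peroxiredoxin-1 had 22.55, 22.87, 29.06 and 28.12 FPKM, which is 20.6% to 24.8% of Prdx1, so reads may have been split between the rows. Summed over both rows the level was 129.5, 133.8, 146.4 and 146 FPKM, again higher in the females, with a small female difference that turned to the BPA-lower side. No new model shared a protein name with any of the other 9 genes. Txnrd1 (gene 58819), the cytosolic thioredoxin reductase and also a selenoprotein, was at 35.38 FPKM in control and 35.82 in BPA males, and 34.26 in control and 36.6 in BPA females. Both BPA libraries were above both controls, by 1.24% in males and 6.83% in females. Txnrd1 was 1 of 10 genes with this order, beside 13.8% of all rows. The limma adjusted P over both sexes was 0.988 for both genes.

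Within each sex, few of the 10 differences were larger than counting error. In males the counting interval of the BPA to control ratio excluded 1 for 2 of 10 genes (Sod1 and Gpx1), beside 28.3% of all rows. In females it did so for 3 of 10 (Nqo1, Gclc and Gpx1), beside 37.1% of all rows. Neither share was far from that of all rows, and spread between animals is not part of these intervals.

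**Figure D2:**
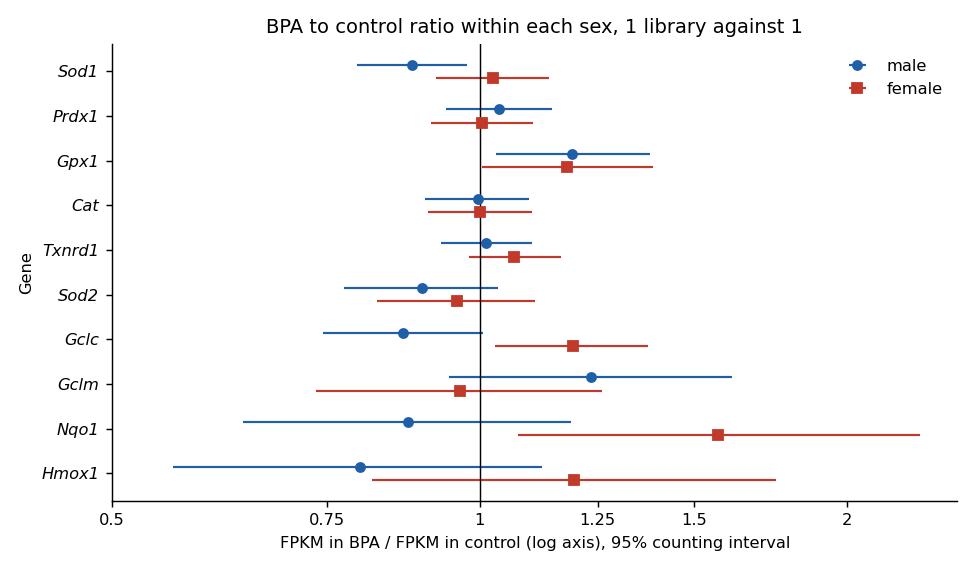
Ratio of FPKM in BPA to FPKM in control (horizontal log axis) for each gene, in males (circles) and females (squares); bars are 95% counting intervals and do not cover spread between animals. Gpx1 lies to the right of 1 in both sexes with ratios of 1.19 and 1.18, and Nqo1 has the highest ratio, 1.57 in females.

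The sexes did not share a direction for most of the genes. Of the 10, 3 were higher in the BPA library of both sexes (Gpx1, Prdx1 and Txnrd1) and 1 was lower in both (Sod2). The other 6 had opposite signs (Hmox1, Nqo1, Gclc, Gclm, Sod1 and Cat). The share of all rows with opposite signs was not computed, so whether 6 of 10 differs from it was not tested. Quantile normalization, which equalizes the distributions of the libraries, moved Gclm to the higher side in females, Prdx1 to the lower side in females, and exchanged the signs of Cat. In males 4 of 10 were higher in BPA, beside 49.2% of all rows, with a median log2 difference of -0.08 beside 0.00 over all rows. In females 8 of 10 were higher, beside 43.2% of all rows, with a median of 0.06 beside -0.04. All rows of the female pair also moved with level: their median log2 difference was -0.13 for means of 1 to 5 FPKM, -0.05 for 5 to 20, 0.00 for 20 to 50 and 0.06 for 50 FPKM or more. Hmox1, Nqo1 and Gclc, which belong to the levels with a negative median, were higher in female BPA, and Prdx1 and Sod1 were below the median of their level. Whether the BPA difference itself differed between the sexes could not be tested, because 4 libraries leave no residual degrees of freedom for an interaction.

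**Figure D3:**
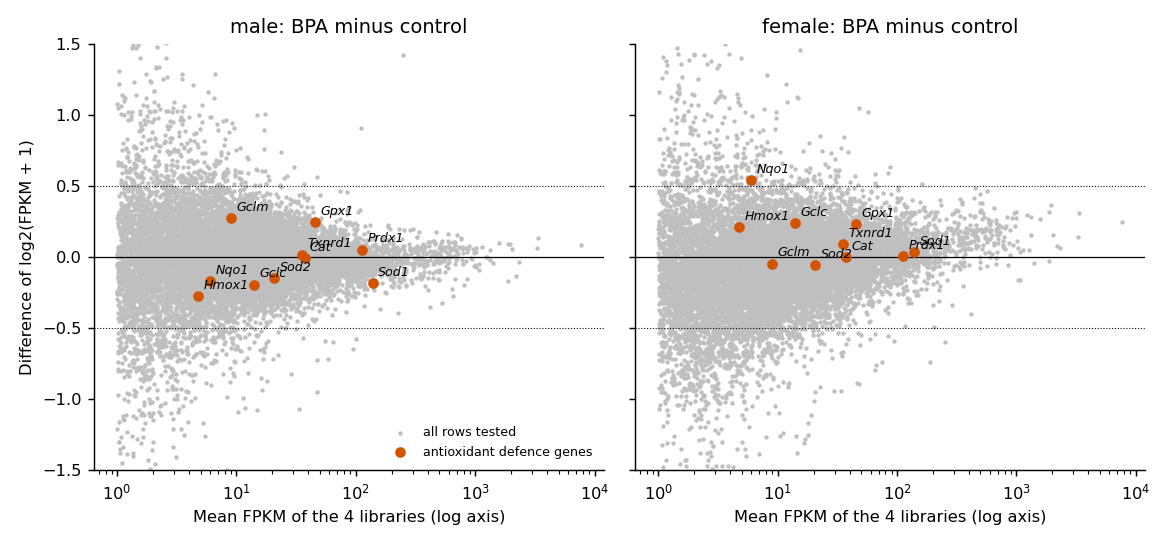
Difference of log2(FPKM + 1) between BPA and control (vertical axis) against mean FPKM (horizontal log axis) in males (left) and females (right); grey points are all 13542 rows, orange points the 10 antioxidant defence genes, dotted lines mark differences of 0.5, and rows beyond 1.5 are not drawn. The 10 genes lie within the cloud, with Nqo1 in females the only one outside the dotted lines, at 0.54.

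Between female and male libraries some of the genes differed in level by more than counting error, again without a call. The counting interval excluded 1 for 4 of 10 genes between the controls and for 2 of 10 between the BPA libraries. The share over all rows was not computed for these intervals, so whether the counts exceed it was not tested. The same 4 libraries serve here as in the comparison of BPA with control. None of the 10 passed the test of female against male (limma), adjusted or unadjusted, beside 0.00738% of all rows (1 row) after adjustment and 10.6% at an unadjusted P under 0.05. With treatment as a covariate 55 of all rows were called, none of them among the 10. Gpx1 and Nqo1 were lower in both female libraries than in both male libraries, 2 of 10 genes beside 22.5% of all rows, and Prdx1 was higher in both, 1 of 10 beside 19.8%. Mean Gpx1 was 40.92 FPKM in females and 50.03 FPKM in males, a log2 difference of -0.28 ± 0.12 (SE, limma adjusted P = 0.475) that ran from -0.41 without male control to -0.16 without male BPA. The ratio was nearly the same in both treatments, 0.822 between the controls (95% counting interval 0.701 to 0.965) and 0.815 between the BPA libraries (0.703 to 0.943), and with treatment as a covariate the unadjusted P was 0.00626 and the adjusted P 0.167. For Nqo1 the ratio was not alike in the treatments: 0.526 between the controls (95% counting interval 0.363 to 0.753) and 0.944 between the BPA libraries. Its log2 difference over both treatments was -0.43 ± 0.21 (SE, limma adjusted P = 0.536). Hmox1 and Sod1 also had ratios below 1 between the controls, 0.693 (95% counting interval 0.479 to 0.995) and 0.863 (0.778 to 0.958), and were within counting error between the BPA libraries. Gclc went the other way, with a ratio of 0.953 between the controls and 1.31 between the BPA libraries (95% counting interval 1.13 to 1.52).

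The regulators of the pathway showed no shared change. Nfe2l2, which encodes NRF2, was at 2.7 FPKM in control and 4.02 in BPA males, and 4.19 in control and 2.99 in BPA females. Its difference was opposite in sign between the sexes. Within each sex it was opposite to Nqo1, Hmox1, Gclc, Sod1 and Cat, whereas Gclm had the signs of Nfe2l2 in both. Gpx1, Prdx1, Txnrd1 and Sod2 kept the same sign in both sexes. Keap1, the inhibitor of NRF2, was at 19.35, 18.72, 15.78 and 15.34 FPKM, lower in both female libraries. Bach1, the repressor of Hmox1, was at 9.3, 9.27, 9.89 and 9.47 FPKM. Of the 4 genes with the response element core shown at the beginning, Prdx1 and Txnrd1 were higher in BPA in both sexes, Sod2 was lower in both and Gclm was opposite, all within the limits given for each.

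The wider set of 11 lists of NRF2 and redox genes, the 10 included, held 78 symbols, of which 76 matched 75 rows (Mt1 and Mt1a name the same row), and 71 rows were tested. None passed limma for BPA against control after adjustment, and 5 of 71 had an unadjusted P under 0.05, beside the 4.7% of all rows. Both BPA libraries were below both controls for 18 of the 71 (25.4%, beside 19.9% of all rows) and above them for 8 (11.3%, beside 13.8%). The medians of the log2 difference were -0.04 in males and -0.04 in females, beside 0.00 and -0.04 over all rows. Past a log2 difference of 0.5, BPA was higher for 2 and lower for 0 of the 71 in the male pair, beside 3.34% and 3.86% of all rows. In the female pair BPA was higher for 3 and lower for 3, beside 3.18% and 6.79% of all rows. The split of all rows was more even under quantile normalization, with 587 of 1210 on the higher side.

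By list, the counts of genes with both BPA libraries above or below both controls are small, and the shares over all rows are 13.8% above and 19.9% below. The examples named with them were chosen after their values were seen. In the list of peroxiredoxins 0 of 7 genes were above and 2 below the controls in both BPA libraries, among them Prdx3, the mitochondrial member, at 28.72, 26.74, 28.67 and 25.32 FPKM. Of the 5 genes for superoxide dismutases, catalase and the copper chaperone, 2 were below: Sod2, and Ccs, which loads copper into SOD1, at 20.04, 15.26, 16.61 and 14.35 FPKM. In NADPH supply, 3 of 7 were below, among them Me1 (23.45, 18, 22.36 and 20.15 FPKM), and 1 was above. In glutathione synthesis and recycling, 2 of 8 were above, among them Gss, which completes glutathione (8.25, 9.82, 9.63 and 11.03 FPKM), and 2 below. Slc7a11, the cystine carrier that feeds glutathione synthesis, was at 3.3, 3.36, 8.69 and 5.05 FPKM, highest in the female control library in which meningeal markers were high; the part of meningeal cells was not tested.

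The genes with the widest mean difference among those of at least 5 FPKM were Ftl1, Gsta4, Gpx7 and Mt1. Gsta4, a glutathione transferase that clears lipid aldehydes, was at 13.58 FPKM in control and 18.7 in BPA males, and 14.47 in control and 22.66 in BPA females. A new gene model with the same protein name took 3.19, 0.01, 4.28 and 1.95 FPKM, and the sums were 16.77, 18.71, 18.75 and 24.61 FPKM, so part of the Gsta4 difference depends on how reads were divided. The ferritin light chain gene Ftl1 is uncertain for the same reason. It was at 8.5, 66.7, 30.77 and 42.67 FPKM, but a new model of the same protein held 875.84, 765.7, 728.62 and 838.13 FPKM, and the sum differed between BPA and control by -0.09 in males and 0.21 in females on the log2 scale, far less than the row alone. Gpx7, a glutathione peroxidase of the endoplasmic reticulum, was at 9.35, 7.4, 10.57 and 6.62 FPKM, lower in both BPA libraries. The metallothionein gene Mt1, whose protein binds zinc and copper, was at 30.04, 34.64, 23.8 and 34.68 FPKM, higher in both. None of the 4 passed limma after adjustment (adjusted P = 0.973 for each).

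**Figure D4:**
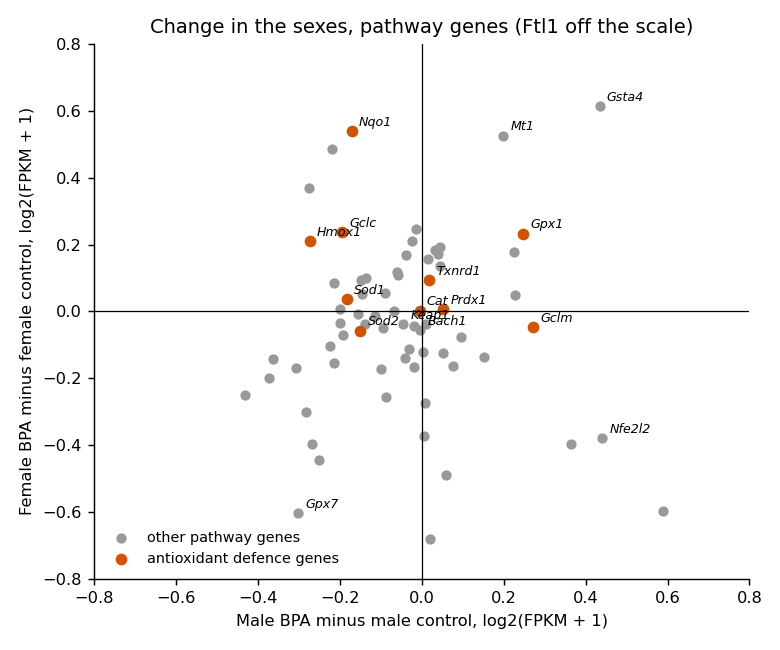
Difference of log2(FPKM + 1) between BPA and control in males (horizontal axis) and females (vertical axis) for the tested genes of the 11 lists; orange points are the 10 antioxidant defence genes, grey points the other genes, and Ftl1 is outside the range drawn. In the upper right lie 3 of the 10 (Gpx1, Prdx1 and Txnrd1), and in the lower left 1 (Sod2).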

How the data were processed

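The authors deposited 1 FPKM table per library, made from reads of total RNA with HISAT 0.1.6, Bowtie2 2.2.5 and RSEM on the rat build rn6 per the submitters' processing notes; the annotation is not given in the sources used here. The tables also hold new gene models, and many rows sit at a lowest value of 0.01. Groups came from the sex and treatment labels. Depth was recovered from low rows of 300 to 1500 bases, where 95.3% to 98.9% of values lay within 0.15 of whole fragments, and gave exact conditional 95% counting intervals of ratios; fragment numbers are estimates.

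Values were analysed as log2(FPKM + 1), which understates differences at low levels. The 13542 rows that averaged 1 FPKM or more were used. BPA against control and female against male were fitted over all 4 libraries, without covariates, with limma 3.58.1 (R 4.3.3; trend, Benjamini-Hochberg adjustment, threshold 0.05). Scripts used Python 3.11.15 and were tested on simulated data. Within a sex, log2 differences of 0.5 or more were counted as descriptions. Pathway genes were named when past 0.5 with 1 sign in both sexes (none was), otherwise by the widest mean difference among those of at least 5 FPKM, with Nfe2l2, Keap1 and Bach1 always named. Other list genes named here (Prdx3, Ccs, Me1, Gss, Slc7a11) were chosen after their values were seen. The 10 genes, the lists and the tests were chosen with earlier results of these data known. Alternatives were a pseudocount of 0.1, no filter, a mean of at least 5 FPKM, quantile normalization, rows of 1 protein name summed, the other factor as covariate, each library left out, and a fold limit of 1. No sample was left out of the comparisons.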

Additional observations from a re-analysis of the deposited data

Results flagged for a closer look

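For 6 of the 10 genes the BPA to control difference had opposite signs in males and females. The share of all rows with opposite signs was not computed, so the count has no background. The difference between the sexes was not tested, since each sex and treatment is 1 library, and opposite signs also arise from small values near 0. As male minus female log2 difference, Nqo1 gave -0.71 (male -0.17, female 0.54), Hmox1 -0.48 (male -0.27, female 0.21), Gclc -0.43 (male -0.19, female 0.24), Gclm 0.32 (male 0.27, female -0.05), Sod1 -0.22 (male -0.18, female 0.04) and Cat -0.0072 (male -0.0053, female 0.0019). The opposite sign of Gclm was lost under quantile normalization (female 0.03), and that of Cat is within 0.377% of its level.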

How the results depend on the processing

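No value of the 10 genes passed an adjusted P of 0.05 (limma) under any of the 10 alternatives per comparison (99 values per comparison, since Hmox1 has none with a mean of at least 5 FPKM), with adjusted P from 0.466 to 1 for BPA and from 0.167 to 1 for sex. Signs of the BPA difference over both sexes turned for Hmox1 under quantile normalization (0.0173). When each library was left out, leaving 1 library in an arm that is assumed to vary like the others, the log2 difference ran from -0.250 to 0.187 for Hmox1, from -0.206 to 0.575 for Nqo1, from -0.162 to 0.205 for Gclc, from -0.179 to 0.0324 for Sod1, from -0.0369 to 0.0959 for Prdx1, from 0.0954 to 0.385 for Gpx1, from 0.0188 to 0.206 for Gclm, from -0.156 to -0.0521 for Sod2, from 0.0325 to 0.0776 for Txnrd1 and from -0.0040 to 0.00057 for Cat. For female against male, Txnrd1 turned under quantile normalization (0.0089), and the leave-one-out ranges were -0.133 to 0.0168 for Sod2, -0.164 to 0.108 for Gclm, -0.0017 to 0.0036 for Cat, -0.0538 to 0.0389 for Txnrd1, -0.407 to -0.159 for Gpx1, -0.696 to -0.157 for Nqo1, -0.332 to -0.0593 for Hmox1, 0.0325 to 0.269 for Gclc, -0.193 to -0.0102 for Sod1 and 0.0844 to 0.136 for Prdx1. Over all rows, calls for BPA went from 0 to 2 with sex as covariate and to between 0 and 3 when each library was left out. Calls for sex went from 1 to 21 with a mean of at least 5 FPKM, 25 with rows summed, 55 with treatment as covariate, and to between 1 and 2 when each library was left out. Rows past the fold limit were 975 in males, and 1538 with a pseudocount of 0.1, 237 with a mean of at least 5 FPKM, 522 with rows summed and 230 at a limit of 1; in females they were 1349, and 440 with a mean of at least 5 FPKM, 863 with rows summed and 294 at a limit of 1. The larger filter and the limit of 1 lower the fold counts by construction, through fewer rows or a stricter limit. The cause of the other shifts was not tested. At 48 to 129 fragments per library, Nqo1, Hmox1 and Gclm could be compared only coarsely.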
